A study of Mus musculus with 19 samples.

Results

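The circadian clock genes examined were Arntl, Clock, Per1, Per2, Per3, Cry1, Cry2, Nr1d1, Nr1d2 and Dbp. They were chosen by symbol, and all 10 were found among the 32694 genes of the deposited expression table. All 10 also passed the filter on low values (at least 10 normalized counts in at least 5 libraries), which left 18445 genes for testing. RNA had been sequenced from 19 mice of 12 weeks of age, with 1 library per mouse. Apc/Tgif tumours were colon tumours of mice with 1 deleted Apc allele and, per the labels, both alleles of Tgif1 and of Tgif2 deleted (n = 7, 4 males and 3 females). Apc tumours were colon tumours of mice with 1 deleted Apc allele and unaltered Tgif genes (n = 7, 4 males and 3 females). Wild-type samples were normal colon (n = 5, 2 males and 3 females). The deletions were made with Villin-Cre, which is expressed in intestinal epithelium, so other cells of a tumour or of the bowel wall keep the undeleted alleles.

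The mammalian clock is a loop of transcription and repression that runs in nearly every cell. The proteins of Arntl (also called Bmal1) and Clock form a dimer that binds E-box sequences and switches on the Per, Cry, Nr1d and Dbp genes. The PER and CRY proteins return to the nucleus and inhibit that dimer, and the NR1D receptors repress Arntl through RORE sequences, where ROR proteins activate. DBP acts through D-box sequences on Per genes and on many output genes. In the colon this cycle also follows feeding and glucocorticoid hormone. The levels of most of these transcripts therefore depend on the hour at which a tissue is taken. The sources used here do not give the hour of collection, so differences between genotypes or sexes and differences in collection time cannot be told apart in any result below.

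Promoter sequences are shown because they hold the elements through which the members act on one another. RefSeq promoters of GRCm38.p6, from 250 bases before to 50 bases after a transcription start, were at hand for 9 of the 10 members, with 13 promoters in all. Both strands were searched for the E-box CACGTG, the E-prime box CACGTT, the D-box TTATGTAA or TTACGTAA, and the RORE core TAGGTCA or TGGGTCA. No motif lies inside another. The E-box was present in 2 of the 13 member promoters and in 7.15% of all 32851 promoters of that length. The E-prime box was present in 3 member promoters, against 4.68% of all promoters, the D-box in 1, against 1.06%, and the RORE core in 1, against 6.45%. The 250 bases before the start follow for the 5 members with a match there, and a window of 30 bases after the second Arntl start. Sequences run 5′ to 3′ on the gene's strand, and capitals mark the matches, where AACGTG is the E-prime box read on the other strand.
Per1, chr11:69098699-69098948, plus strand: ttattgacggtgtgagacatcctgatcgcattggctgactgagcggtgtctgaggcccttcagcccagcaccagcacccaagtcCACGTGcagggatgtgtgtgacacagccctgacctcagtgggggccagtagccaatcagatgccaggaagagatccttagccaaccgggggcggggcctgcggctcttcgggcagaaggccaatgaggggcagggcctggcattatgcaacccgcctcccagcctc
Cry1, chr10:85185055-85185304, minus strand: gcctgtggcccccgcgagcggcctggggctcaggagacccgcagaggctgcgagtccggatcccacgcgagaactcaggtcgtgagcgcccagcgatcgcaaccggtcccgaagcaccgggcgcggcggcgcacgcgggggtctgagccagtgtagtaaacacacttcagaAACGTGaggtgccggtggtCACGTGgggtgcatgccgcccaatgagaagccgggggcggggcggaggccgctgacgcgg
Cry2, chr2:92434070-92434319, minus strand: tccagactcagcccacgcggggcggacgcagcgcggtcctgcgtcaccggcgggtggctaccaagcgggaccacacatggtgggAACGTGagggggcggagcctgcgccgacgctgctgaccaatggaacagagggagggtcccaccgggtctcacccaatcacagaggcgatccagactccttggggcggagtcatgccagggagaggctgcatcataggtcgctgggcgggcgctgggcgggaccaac
Nr1d1, chr11:98775378-98775627, minus strand: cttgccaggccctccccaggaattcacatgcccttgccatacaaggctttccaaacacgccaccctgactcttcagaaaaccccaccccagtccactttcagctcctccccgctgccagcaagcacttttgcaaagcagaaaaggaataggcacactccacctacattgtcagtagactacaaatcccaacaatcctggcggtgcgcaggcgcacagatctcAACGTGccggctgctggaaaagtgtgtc
Per3, chr4:151044666-151044915, minus strand: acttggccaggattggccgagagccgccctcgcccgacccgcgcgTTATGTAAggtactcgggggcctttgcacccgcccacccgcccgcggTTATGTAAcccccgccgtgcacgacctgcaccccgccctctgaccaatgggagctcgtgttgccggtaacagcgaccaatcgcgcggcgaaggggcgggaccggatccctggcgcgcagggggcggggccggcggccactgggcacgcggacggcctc
Arntl, chr7:113207529-113207558, plus strand: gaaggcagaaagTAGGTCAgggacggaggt

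Counting the start base as 0, the first bases of the matches lay at -166 in Per1 (E-box), -60 in Cry1 (E-box), -79 in Cry1 (E-prime box), -166 in Cry2 (E-prime box), -28 in Nr1d1 (E-prime box), -205 and -158 in Per3 (D-box), and 30 in Arntl (RORE core). No match was present in these windows of Clock, Nr1d2 and Dbp, which says only that these letters are absent there. Known elements of clock genes also lie further away, outside the windows searched. The map of matches by distance from the start shows each of them.

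**Figure D1:**
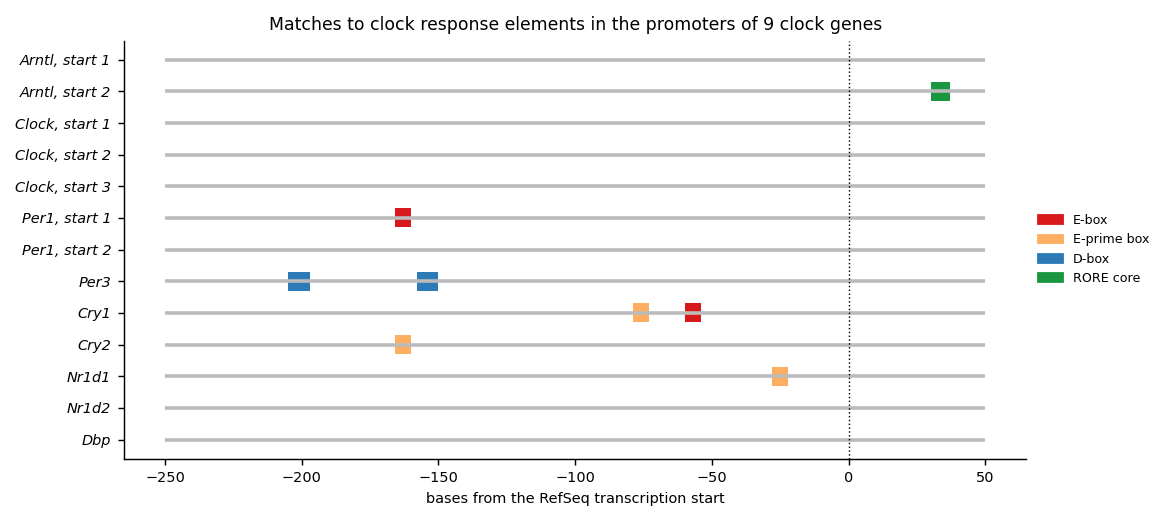
Matches to 4 clock response elements in 13 RefSeq promoters of 9 clock genes. The horizontal axis gives bases from the transcription start, grey lines are the promoters searched, and coloured blocks are matches: E-box matches in Cry1 and the first Per1 promoter, E-prime matches in Cry1, Cry2 and Nr1d1, both D-box matches in Per3 and the RORE core match downstream of the second Arntl start.

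Values are given as normalized counts, that is, the deposited values read as counts scaled per library, and their sums per library lay between 34417808 and 44732717. Tgif1 fell in Apc/Tgif tumours, at 251 to 654 normalized counts, against 2785 to 4964 in Apc tumours (log2 difference -3.47, adjusted p = 2.5e-10). Tgif2 was higher there, at 2141 to 3107 normalized counts, against 476 to 764 in Apc tumours (log2 difference 2.05, adjusted p = 1.1e-07). Apc itself had 4939 to 8504 normalized counts in Apc/Tgif tumours and 4845 to 7674 in Apc tumours. The sources used here do not say which parts of the alleles were deleted, so levels over whole genes do not check the deletions of Tgif2 and Apc. Among the clock genes, 2 libraries stood apart. Apc/Tgif replicate 2, a female, was far above the other Apc/Tgif tumours in Per1, Nr1d1, Nr1d2 and Dbp, and wild-type replicate 3, also a female, was far above the other wild-type samples in Arntl. Calls that leaving out either or both of them changed are given with and without them. Both were picked from the members' own values, so results without them describe the values and are no separate check. Epithelial markers were present in every library, with a summed level of 8 markers of 325550 to 410658 normalized counts in Apc/Tgif tumours, 275879 to 506389 in Apc tumours and 430867 to 543343 in wild-type colon.

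Per kilobase of exon, which allows genes to be compared, Nr1d1 and Nr1d2 led the order in Apc/Tgif tumours, with 713 ± 629 and 664 ± 359 normalized counts per kilobase (SD, n = 7). Clock followed there with 536 ± 164, and these 3 neighbours did not differ beyond their spread. Without Apc/Tgif replicate 2 their order turned round, with 552 ± 174 for Clock, 534 ± 104 for Nr1d2 and 480.2 ± 136 for Nr1d1 (SD, n = 6). In Apc tumours Nr1d2 led with 468 ± 100.3 and Clock followed with 380.1 ± 136 (SD, n = 7), and Nr1d1 came next with 268 ± 129, in each case within the spread of its neighbour. In wild-type colon Nr1d1 stood first with 1969 ± 267, Dbp next with 1465 ± 858, and then Nr1d2 with 846 ± 340 normalized counts per kilobase (SD, n = 5). The lowest places were held by Per3 in both tumour groups, with 72.4 ± 51.0 in Apc/Tgif and 57.1 ± 40.0 in Apc tumours, and by Arntl in wild-type colon, with 147 ± 96.6. Dbp thus held place 8 in Apc/Tgif tumours (place 9 without replicate 2), place 9 in Apc tumours and place 2 in wild-type colon.

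**Figure D2:**
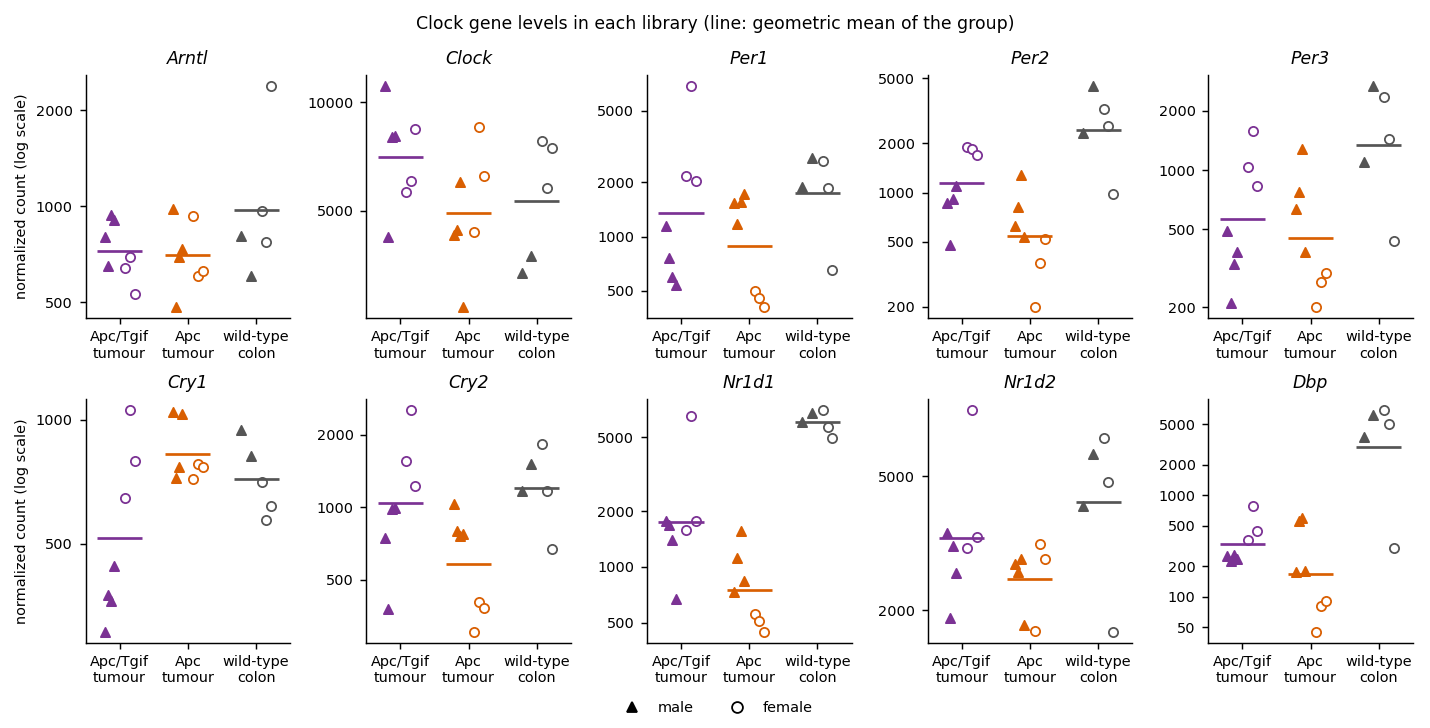
Normalized counts of the 10 clock genes in each of 19 libraries, on log axes, with 1 point per library, triangles for males, open circles for females and a line at the geometric mean of each group. In Nr1d1 all tumours except Apc/Tgif replicate 2, at 6497, lie below all wild-type samples, and in Per1 the females of the Apc/Tgif group lie above its males while the females of the Apc group lie below its males.

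Among the members, Dbp and Nr1d1 had the largest fitted differences between tumours and normal colon. Dbp (chromosome 7, 45705088 to 45710203), a D-box activator whose transcription is a direct readout of the ARNTL and CLOCK dimer, had a lowest value of 224, a median of 254 and a highest value of 789.6 normalized counts in Apc/Tgif tumours. In Apc tumours these were 45.3, 173 and 600.2. In wild-type colon the 5 samples had 6835, 4994, 298, 3723 and 6079.8 normalized counts. Every tumour lay below 4 of the 5 wild-type samples, and wild-type replicate 3, at 298, lay inside the tumours' range. Dbp fell by 3.29 ± 0.70 on the log2 scale (SE) in Apc/Tgif tumours relative to wild-type colon, with adjusted p = 0.00068 by limma over all genes tested. In Apc tumours it fell by 4.27 ± 0.70 relative to the same wild-type samples, with adjusted p = 5.8e-05. Without wild-type replicate 3 the falls were 4.02 and 5.01. Within each tumour group the sexes did not overlap in Dbp, with 224 to 254 normalized counts in male and 362 to 789.6 in female Apc/Tgif tumours, and 173 to 600.2 in male and 45.3 to 90.5 in female Apc tumours. Dbp shares 539 of its 2993 exonic bases with Sphk2 on the opposite strand. The sources used here do not say if reads were counted by strand. Reads from the shared bases of such pairs therefore cannot be told apart here.

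Nr1d1 (chromosome 11, 98767932 to 98775333), which encodes the haem-binding repressor REV-ERB alpha, had 669, 1692 and 6497 normalized counts as lowest, median and highest values in Apc/Tgif tumours. In Apc tumours these were 449.8, 733 and 1561. The wild-type samples had 6961, 5653, 4935, 6012 and 6734. All 7 Apc tumours were below all 5 wild-type samples, a separation found in this direction for 15.4% of all genes tested, and so were 6 of the 7 Apc/Tgif tumours, and only Apc/Tgif replicate 2 reached the wild-type range. Wild-type replicate 3, low in Dbp, was close to the other wild-type samples in Nr1d1. The fall relative to wild-type colon was 1.79 ± 0.40 on the log2 scale in Apc/Tgif tumours (adjusted p = 0.00099) and 3.00 ± 0.40 in Apc tumours (adjusted p = 5.2e-06). Nr1d1 was the member that was higher in Apc/Tgif than in Apc tumours, by 1.22 ± 0.36 (log2, adjusted p = 0.026). That difference was 0.87 (adjusted p = 0.028) without Apc/Tgif replicate 2, and it missed the threshold when Apc replicate 1, 2 or 3, the female Apc tumours, was left out (adjusted p = 0.055, 0.054 and 0.060). Nr1d1 shares 263 exonic bases with Thra on the opposite strand.

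Nr1d2 (chromosome 14, 18204054 to 18239127), which encodes the related repressor REV-ERB beta, changed less. Its lowest, median and highest values were 1898, 3098 and 7838 normalized counts in Apc/Tgif tumours and 1736, 2741 and 3143 in Apc tumours. The wild-type samples had 6480.2, 4790.0, 1730.4, 4086 and 5799. Apart from wild-type replicate 3, all wild-type samples lay above all Apc tumours, and all Apc/Tgif tumours except replicate 2 lay below them. The fitted log2 difference from wild-type colon was -0.32 in Apc/Tgif tumours (adjusted p = 0.42) and -0.73 in Apc tumours (adjusted p = 0.064), so neither passed. Without wild-type replicate 3 they were -0.65 (adjusted p = 0.048) and -1.05 (adjusted p = 0.0029), both past the threshold. Without Apc/Tgif replicate 2 the difference in Apc tumours passed as well (-0.76, adjusted p = 0.024).

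Among the Per genes, which encode the rhythmic partners of CRY in the repressor complex, Per2 was lower in both tumour groups. Per2 (chromosome 1, 91415982 to 91459324) had 865, 479, 909.8 and 1098 normalized counts in male and 1904, 1841 and 1693 in female Apc/Tgif tumours. It had 628, 812, 1273 and 536 in male and 199.9, 369 and 519 in female Apc tumours, against 2325 and 4519.8 in male and 3228, 2571 and 978 in female wild-type colon. All tumours were below 4 of the wild-type samples, and wild-type replicate 3 fell among the tumours. The sexes did not overlap in either tumour group, with males below females in Apc/Tgif and above them in Apc tumours. Per2 fell by 1.13 ± 0.44 (log2) in Apc/Tgif tumours relative to wild-type colon (adjusted p = 0.038) and by 2.20 ± 0.44 in Apc tumours (adjusted p = 0.00038). The first of these calls was lost on leaving out any 1 of 8 libraries, with adjusted p up to 0.13 (without wild-type replicate 5), and was kept without wild-type replicate 3 (-1.43, adjusted p = 0.010).

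Per3 (chromosome 4, 151003652 to 151044665), a Per paralogue that is dispensable for rhythmicity in mice, had 489.5, 211, 332 and 380.2 normalized counts in male and 1036, 1587 and 833 in female Apc/Tgif tumours. In Apc tumours it had 636, 769, 1286 and 382 in males and 201, 269.9 and 299.6 in females, and in wild-type colon 1099 and 2693 in males and 2349, 1438 and 434 in females. The groups overlapped in both comparisons with wild-type colon, and within each tumour group the sexes did not overlap. Per3 fell by 1.57 ± 0.55 (log2) in Apc tumours (adjusted p = 0.024), and its difference of -1.26 in Apc/Tgif tumours missed the threshold (adjusted p = 0.065). Without wild-type replicate 3 the difference in Apc/Tgif tumours was -1.65 and passed (adjusted p = 0.017), as it did without Apc/Tgif replicate 2 (-1.58, adjusted p = 0.021). The Apc call was lost without wild-type replicate 5 (adjusted p = 0.092) and in 4 other single-library omissions.

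Per1 (chromosome 11, 69095217 to 69109960), the Per gene that is also induced rapidly by light and glucocorticoid signals, had 1143, 763, 599.8 and 542 normalized counts in male and 2169, 6889 and 2034 in female Apc/Tgif tumours. In Apc tumours it had 1531, 1181, 1560.4 and 1719 in males and 499, 455 and 408 in females. In wild-type colon it had 1893 and 2745 in males and 2613, 1854 and 649 in females. The sexes did not overlap in either tumour group, and they lay in opposite order. With both sexes together, the log2 difference from wild-type colon was -0.37 in Apc/Tgif tumours (adjusted p = 0.63) and -0.97 in Apc tumours (adjusted p = 0.18). Without both libraries that stood apart, the difference in Apc tumours was -1.34 and passed (adjusted p = 0.026).

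The Cry genes encode the stronger repressors of the loop. Cry1 (chromosome 10, 85131700 to 85185064) had 306, 374, 363 and 441 normalized counts in male and 646, 1054 and 794 in female Apc/Tgif tumours. It had 1043, 721, 768 and 1033 in male and 719, 783 and 768 in female Apc tumours, against 944 and 817 in male and 705, 572 and 618 in female wild-type colon. The 4 male Apc/Tgif tumours were the 4 lowest of all 19 libraries. Cry1 was lower in Apc/Tgif than in Apc tumours by 0.67 ± 0.23 (log2, adjusted p = 0.049), a call that 15 of the 19 single-library omissions ended, with adjusted p up to 0.11 (without Apc/Tgif replicate 4). Without Apc/Tgif replicate 2 it was -0.83 (adjusted p = 0.0077), and without wild-type replicate 3 it was -0.67 (adjusted p = 0.054). Its difference from wild-type colon was -0.44 in Apc/Tgif tumours (adjusted p = 0.16) and 0.23 in Apc tumours (adjusted p = 0.46). The difference in Apc/Tgif tumours passed without Apc/Tgif replicate 2 (-0.62, adjusted p = 0.025) and without both libraries that stood apart (-0.68, adjusted p = 0.023).

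Cry2 (chromosome 2, 92403646 to 92434043) had 745, 378, 984 and 997 normalized counts in male and 1549, 2521 and 1227 in female Apc/Tgif tumours. In Apc tumours it had 1031, 799.9, 758 and 774 in males and 306, 403 and 383 in females, and in wild-type colon 1170.0 and 1514 in males and 1832, 1169 and 669 in females. Like Per1, Per2, Per3 and Dbp, Cry2 had sexes that did not overlap in either tumour group and lay in opposite order. The share of all genes split in this way was not computed, so this only describes the values of these members. It fell by 1.06 ± 0.40 (log2) in Apc tumours relative to wild-type colon (adjusted p = 0.035), a call that did not survive 7 single-library omissions, with adjusted p up to 0.092 (without wild-type replicate 1). In Apc/Tgif tumours the Cry2 difference was -0.22 (adjusted p = 0.67). Cry2 shares 295 exonic bases with D930015M05Rik on the opposite strand.

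The positive arm was called in none of the 3 comparisons between groups. Arntl (chromosome 7, 113207465 to 113314126) had 531, 694 and 937 normalized counts as lowest, median and highest values in Apc/Tgif tumours and 484, 693 and 979 in Apc tumours. The wild-type samples had 969, 773, 2388, 808 and 606, and without replicate 3 they lay within the tumours' range. The log2 difference from wild-type colon was -0.42 in Apc/Tgif tumours (adjusted p = 0.21) and -0.46 in Apc tumours (adjusted p = 0.17), and without wild-type replicate 3 it was -0.11 (adjusted p = 0.68) and -0.15 (adjusted p = 0.56). Clock (chromosome 5, 76209868 to 76304792), whose transcript varies little over the day in most tissues, had 4241, 8027 and 11110.3 normalized counts in Apc/Tgif tumours and 2710.0, 4428 and 8510.2 in Apc tumours. The wild-type samples had 7793, 5784, 7464, 3358 and 3749, and all groups overlapped. Its difference from wild-type colon was 0.48 in Apc/Tgif tumours (adjusted p = 0.14) and -0.04 in Apc tumours (adjusted p = 0.91).

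In all, 3 of the 10 members were lower and none was higher in Apc/Tgif tumours than in wild-type colon, where 25.5% of all genes tested were lower and 50.3% were called in either direction. In Apc tumours 5 members were lower and none was higher, against 25.2% of all genes lower and 49.1% in either direction. The median log2 difference of the members was -0.43 in Apc/Tgif and -1.01 in Apc tumours, against 0.0016 and -0.01 over all genes. Both comparisons use the same wild-type samples. Between Apc/Tgif and Apc tumours 1 member was higher and 1 lower, against 7.88% of all genes higher, 8.76% lower and 16.6% in either direction. Between the tumours the members' median was 0.56, against -0.01 over all genes. With 1 mean per group and sex, 5 members were lower in Apc/Tgif tumours than in wild-type colon (27.5% of all genes lower, 54.9% in either direction) and 7 in Apc tumours (27.6% lower, 54.7% in either direction). Between the tumours 4 were then higher and 1 lower (11% of all genes higher, 12% lower, 22.9% in either direction). Relative to wild-type colon and without both libraries that stood apart, 6 members were lower in Apc/Tgif tumours. Over all genes 25% were then lower and 50.3% were called in either direction. In Apc tumours 7 were lower (25.6% of all genes lower, 50.9% in either direction). Both libraries were picked from the members' own values, so these counts are no separate check. With libraries scaled to equal totals, 2 members were lower in Apc/Tgif tumours (20.8% of all genes lower, 31.5% higher) and 4 in Apc tumours (18.5% lower, 33.4% higher).

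Tumours and normal colon also differed in their cells. All 10 smooth muscle markers were lower in both tumour groups, with a summed level of 10316 to 19207 normalized counts in Apc/Tgif tumours, 13463 to 23086 in Apc tumours and 206707 to 306998 in wild-type colon. All 8 markers of differentiated colonocytes were lower in both, with sums of 3695 to 33417 in Apc/Tgif tumours, 11895 to 68026 in Apc tumours and 213723 to 267079 in wild-type colon. All 8 B and plasma cell markers were lower in both tumour groups, and of 10 neuron and glia markers 10 were lower in Apc/Tgif and 9 in Apc tumours. All 6 neutrophil markers were higher in both, with sums of 1770.1 to 13990.1, 6232 to 12756 and 136 to 182 in Apc/Tgif tumours, Apc tumours and wild-type colon. Of 6 fibroblast markers, 2 were higher and 1 lower in Apc/Tgif tumours, and 3 were higher and 1 lower in Apc tumours. Of all genes tested, 24.8% were higher and 25.5% lower in Apc/Tgif tumours, and 23.9% and 25.2% in Apc tumours. The tumour groups also differed from each other. Between them 7.88% of all genes were higher and 8.76% lower in Apc/Tgif tumours. Of the colonocyte markers 5 of 8 were lower in Apc/Tgif than in Apc tumours (median log2 difference of the list -2.26), as were 2 of 10 neuron and glia, 2 of 6 fibroblast and 2 of 6 neutrophil markers, while no smooth muscle, B and plasma cell or epithelial marker was called. The neuron and glia sums did not overlap, at 245 to 688 normalized counts in Apc/Tgif and 804 to 1774 in Apc tumours. No marker of these lists was at 0 in all libraries of a group, and 4 of the 6 neutrophil markers had a median below 10 normalized counts in wild-type colon. In bulk tissue fewer cells of a type and less RNA per cell cannot be told apart, and the part of these cells in the clock differences, those of Nr1d1 and Cry1 between the tumours included, was not tested.

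**Figure D3:**
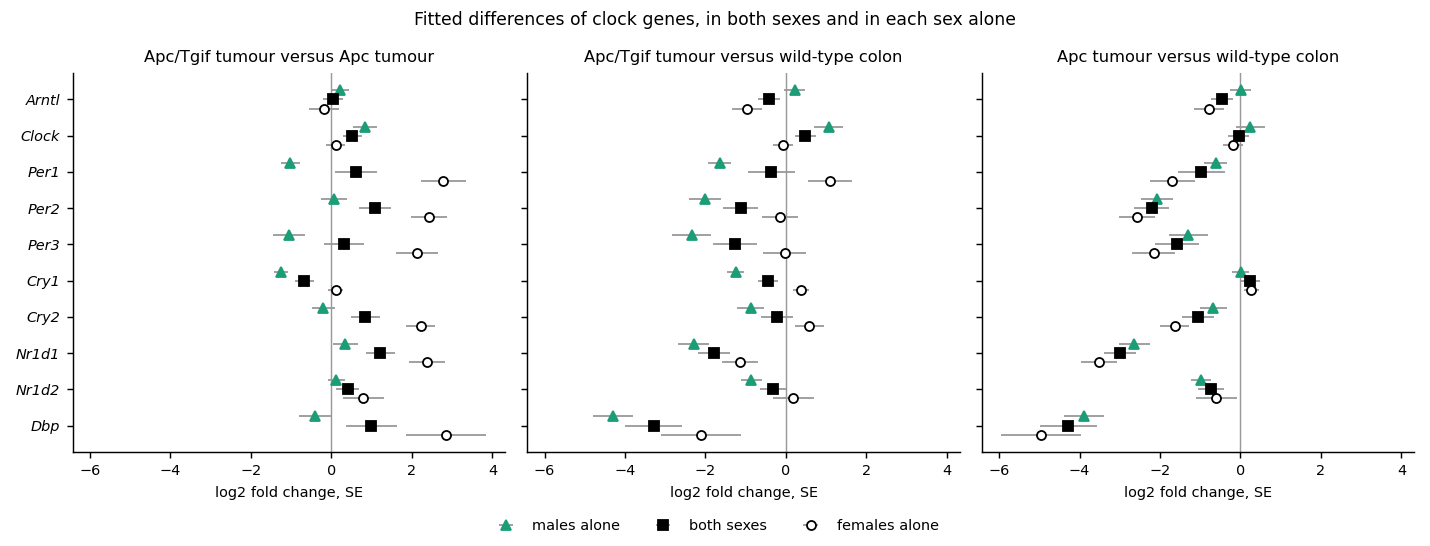
Fitted log2 fold changes with standard errors for the 10 clock genes in 3 comparisons, for males alone, both sexes together and females alone. Dbp, Nr1d1 and Per2 lie left of 0 in both comparisons with wild-type colon with both sexes in the fit, and in the comparison of Apc/Tgif with Apc tumours Per1 lies left of 0 in males (-1.02) and right of 0 in females (2.78).

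The difference between the tumour genotypes depended on sex in most clock genes. When each group and sex had a mean of its own, the effect of the Apc/Tgif relative to the Apc genotype was lower in males than in females for 7 of the 10 members, against 11.9% of all genes (23.6% in either direction). The male effect minus the female effect was -3.81 ± 0.61 (log2, SE) for Per1 (adjusted p = 0.00079), -3.25 ± 1.08 for Dbp (adjusted p = 0.039), and -3.18 ± 0.70 for Per3 (adjusted p = 0.0049). It was -2.42 ± 0.48 for Cry2 (adjusted p = 0.0028) and -2.36 ± 0.58 for Per2 (adjusted p = 0.0095). It was -2.03 ± 0.58 for Nr1d1 (adjusted p = 0.019) and -1.36 ± 0.26 for Cry1 (adjusted p = 0.0020). Arntl (0.41, adjusted p = 0.53), Clock (0.72, adjusted p = 0.23) and Nr1d2 (-0.66, adjusted p = 0.41) were not called. The 7 called members were thus the Per and Cry genes, Nr1d1 and Dbp, and the 2 genes of the positive arm were outside them. Without Apc/Tgif replicate 2 the call remained for 6 members, and Dbp missed it (-2.92, adjusted p = 0.091). Dbp also missed it in 12 further single-library omissions, and the other 6 kept their call in each of the 19 omissions.

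Within males alone, Cry1 was lower in Apc/Tgif than in Apc tumours by 1.25 ± 0.17 (adjusted p = 0.0012) and Per1 by 1.02 ± 0.23 (adjusted p = 0.015), where 8.99% of all genes were lower and 17.4% were called in either direction. Both genes lay lower without overlap, as did 10.2% of all genes. Within females alone 5 members were higher in Apc/Tgif tumours, against 12.1% of all genes higher and 24.1% called in either direction. These were Per1 (2.78 ± 0.55, adjusted p = 0.0086), Per2 (2.42 ± 0.44, adjusted p = 0.0062), Nr1d1 (2.38 ± 0.45, adjusted p = 0.0070), Cry2 (2.22 ± 0.36, adjusted p = 0.0039) and Per3 (2.13 ± 0.53, adjusted p = 0.020). In these 5 genes and in Dbp, all 3 female Apc/Tgif tumours lay above all 3 female Apc tumours, as they did in 20.9% of all genes. Dbp had 362, 789.6 and 444 normalized counts in female Apc/Tgif tumours and 45.3, 80.7 and 90.5 in female Apc tumours, and its difference of 2.84 ± 0.99 missed the threshold (adjusted p = 0.064).

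Sex differences were called within each tumour genotype. Males minus females within Apc/Tgif tumours gave -2.09 for Per1 (adjusted p = 0.011), -1.71 for Per3 (adjusted p = 0.044), -1.22 for Cry2 (adjusted p = 0.040) and -1.14 for Cry1 (adjusted p = 0.0038), all lower in males, against 3.74% of all genes lower and 7.54% in either direction. Within Apc tumours it gave 1.71 for Per1 (adjusted p = 0.024) and 1.20 for Cry2 (adjusted p = 0.040), both higher in males, against 4.73% of all genes higher and 8.33% in either direction. Within wild-type colon no member was called, against 0.0651% of all genes, with only 2 male samples, and Arntl, Clock and Cry1 had an unadjusted p below 0.05. The sex difference of the effect relative to wild-type colon was called for Per1 (-2.73, adjusted p = 0.036) and Cry1 (-1.62, adjusted p = 0.016) in Apc/Tgif tumours, against 1.73% of all genes lower and 3.4% in either direction. Neither call was kept without wild-type replicate 3 (adjusted p = 0.084 for Per1 and 0.052 for Cry1), and without Apc/Tgif replicate 2 the call for Per1 was lost (adjusted p = 0.068). In Apc tumours limma called it for none of the members, against 0.0108% of all genes, and 0 had an unadjusted p below 0.05.

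The sex-split comparisons with wild-type colon followed the same values. In male Apc/Tgif tumours 7 members were lower than in male wild-type colon and Clock was higher (1.07 ± 0.36, adjusted p = 0.035), against 21.2% of all genes lower, 21.3% higher and 42.5% in either direction. Without overlap, 8 members lay below male wild-type colon (29.2% of all genes) and Clock above it (29.3%). In female Apc/Tgif tumours no member was called by limma, against 43.4% of all genes, 2 members (Arntl and Nr1d1) had an unadjusted p below 0.05, and Arntl was the member that lay below female wild-type colon without overlap (28.1% of all genes). Male Apc tumours had 4 lower members (Dbp, Nr1d1, Nr1d2 and Per2), against 16.5% of all genes lower and 33% in either direction, and 6 lay below without overlap (26.4% of all genes). Female Apc tumours had 6 lower members (Dbp, Nr1d1, Per1, Per2, Per3 and Cry2), against 22.1% of all genes lower and 43.4% in either direction. The same 6 lay below without overlap (29.8% of all genes), and Cry1 lay above (30.3%).

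**Figure D4:**
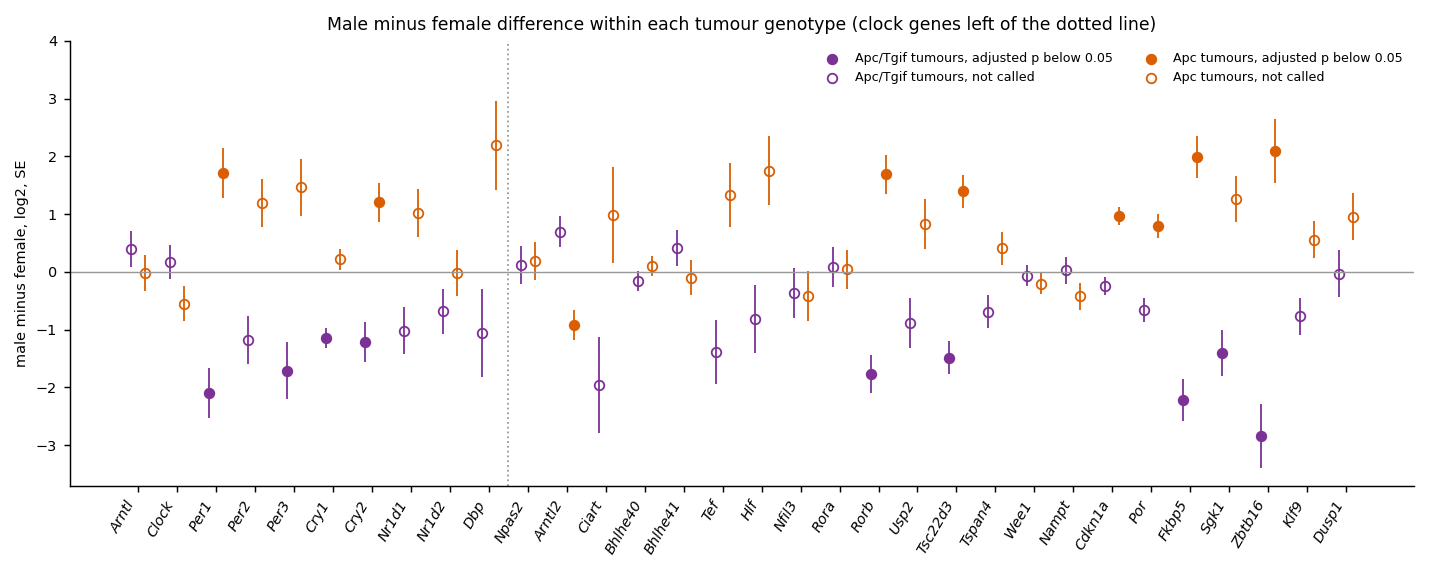
Male minus female log2 difference with standard errors within Apc/Tgif and within Apc tumours, for the 10 clock genes left of the dotted line and for other clock, output and glucocorticoid target genes right of it. Filled points have an adjusted p below 0.05; Per1 stands at -2.09 in Apc/Tgif and at 1.71 in Apc tumours, and Rorb, Fkbp5 and Zbtb16 are split the same way.

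Other genes of the clock were read from lists of paralogues, loop repressors, ROR activators, protein modifiers and outputs. Of the positive-arm paralogues, Arntl2 had 178 to 421 normalized counts in Apc/Tgif tumours and 233 to 728 in Apc tumours, against 50.9 to 63.6 in wild-type colon. It rose by 2.26 ± 0.28 (log2) in Apc/Tgif tumours (adjusted p = 2.0e-06) and by 2.92 ± 0.28 in Apc tumours (adjusted p = 1.2e-07), while Npas2, a Clock paralogue, was not called. Of 6 other loop repressors and PAR or E4BP4 family factors, 2 were higher and 3 lower in Apc/Tgif tumours. In Apc tumours 2 were higher and 4 lower. Of all genes tested, 24.8% were higher and 25.5% lower in Apc/Tgif tumours, and 23.9% higher and 25.2% lower in Apc tumours. Nfil3, which competes with DBP at D-boxes, rose by 2.73 in Apc/Tgif and by 2.71 in Apc tumours (adjusted p = 1.1e-06 and 1.7e-06). Hlf, a PAR activator related to DBP, fell by 2.98 in Apc/Tgif and fell by 4.11 in Apc tumours (adjusted p = 0.00015 and 5.0e-06), with 38.8 to 116 normalized counts in Apc/Tgif tumours and 4.29 to 84.8 in Apc tumours, against 180.4 to 957 in wild-type colon.

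Ciart, a repressor of the ARNTL and CLOCK dimer, fell by 2.26 in Apc/Tgif and by 2.27 in Apc tumours (adjusted p = 0.018 each). Bhlhe41, a repressor at E-boxes, fell by 1.55 and by 1.80 (adjusted p = 2.3e-05 and 4.8e-06), and its paralogue Bhlhe40 rose by 0.61 and by 0.47 (adjusted p = 0.0010 and 0.0078). Tef, a further PAR factor, fell by 1.94 in Apc tumours (adjusted p = 0.0057) and had a difference of -1.13 in Apc/Tgif tumours (adjusted p = 0.089). Rora and Rorb, whose products activate Arntl, were not called. Of 9 genes for kinases and other modifiers of clock proteins, 5 were higher and none was lower in each tumour group. Over all genes 24.8% were higher in Apc/Tgif and 23.9% in Apc tumours. Csnk1e, a kinase that phosphorylates PER proteins, rose by 2.12 and by 1.87 (adjusted p = 1.3e-09 and 9.3e-09). Of 7 output genes, 2 were lower in Apc/Tgif and 3 in Apc tumours, against 25.5% and 25.2% of all genes. Among them was Usp2, which fell by 3.73 and by 3.64 (adjusted p = 2.1e-07 and 4.0e-07). None of these lists had a member called between Apc/Tgif and Apc tumours with both sexes together, where 16.6% of all genes were called.

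The sex dependence between the tumour genotypes was also present outside the members. Rorb had a lower male than female effect (-3.45 ± 0.48, adjusted p = 0.00035). Among the loop repressors and outputs, Tef (-2.72), Hlf (-2.57), Tsc22d3 (-2.88), Cdkn1a (-1.21) and Por (-1.46) were called in the same direction (adjusted p = 0.020, 0.036, 0.00039, 0.0020 and 0.0030). Arntl2 was called in the opposite direction (1.62 ± 0.37, adjusted p = 0.0061). Of 6 glucocorticoid targets 5 had a lower male effect, with Fkbp5 at -4.19 ± 0.51 (adjusted p = 0.00027) and Zbtb16 at -4.93 ± 0.79 (adjusted p = 0.00082). Some of the 6 also belong to the members or to other lists used here, so these lists are not independent of one another. The summed level of these 6 genes was 4445 to 6385 normalized counts in male and 8191 to 29095 in female Apc/Tgif tumours, and 9930.2 to 17667 in male and 4995 to 6449 in female Apc tumours. Relative to wild-type colon 4 of the 6 were lower in each tumour group and 1 was higher in Apc tumours. Over all genes 25.5% were lower in Apc/Tgif and 25.2% in Apc tumours, and 23.9% were higher in Apc tumours. Of 10 immediate early genes 1 had a higher and 1 a lower male effect. Over all genes tested, 11.6% had a higher and 11.9% a lower male effect, and these shares also apply to the marker counts that follow. Of the cell marker lists, 2 of 10 smooth muscle, 2 of 10 neuron and glia, 2 of 6 neutrophil, 1 of 8 B and plasma cell, 1 of 8 epithelial and 1 of 8 colonocyte markers had a lower male effect, and 1 of 6 fibroblast markers had a higher one. The part of hormone, cells or other factors in the sex dependence of the clock genes was not tested.

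The spread among libraries of a group was described by the SD of the log2 values. It was taken over both sexes, so the sex differences given above are part of it. Dbp had an SD of 0.66 in Apc/Tgif tumours, 1.40 in Apc tumours and 1.88 in wild-type colon, which was above that of 77.9%, 97.2% and 99.4% of all genes tested. Per1 had an SD of 1.30, 0.93 and 0.84 in the same groups, above 96.4%, 91.0% and 94.0% of genes. Without the library that stood apart, the SD was 0.87 in Apc/Tgif tumours and 0.30 in wild-type colon for Per1, and 0.40 and 0.38 for Dbp. Cry1 had 0.66 in Apc/Tgif and 0.23 in Apc tumours, against 0.29 in wild-type colon. Nr1d1 had an SD of 0.97 in Apc/Tgif and 0.65 in Apc tumours, against 0.20 in wild-type colon, values above those of 91.0%, 79.8% and 31.2% of genes. Without Apc/Tgif replicate 2 its SD there was 0.54, below that in Apc tumours. Around the mean of each group and sex, pooled over all libraries, the SD was 0.23 for Cry1 and 0.63 for Per1. It was 0.60 for Nr1d1 and 1.14 for Dbp. In this order of genes, the pooled values were above those of 30.5%, 81.7%, 79.9% and 96.6% of genes. In a limma test of absolute deviations no member had a called difference in spread in any of the 3 comparisons, against 0.0108% of all genes in Apc/Tgif tumours and 0.0488% in Apc tumours relative to wild-type colon, and 0.0271% between the tumours, and 0 members had an unadjusted p below 0.05. With deviations taken from the mean of each group and sex, again no member was called, against 0.282% of all genes in Apc/Tgif tumours and 0.309% in Apc tumours relative to wild-type colon, and 0.477% between the tumours. In that test 5 members had an unadjusted p below 0.05 between Apc/Tgif tumours and wild-type colon, 3 between Apc tumours and wild-type colon and 3 between the tumours, and the lowest adjusted p was 0.057, for Dbp in Apc/Tgif tumours relative to wild-type colon (difference in deviation -1.32 on the log2 scale). The highest Dbp value was 3.52 times the lowest in Apc/Tgif tumours, 13.2 times in Apc tumours and 22.9 times in wild-type colon. Without the libraries that stood apart it was 1.98 times in Apc/Tgif tumours and 1.84 times in wild-type colon.

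Wild-type replicate 3 was at an extreme of its group in 8 of the 10 members. It had the highest Arntl of all 19 libraries at 2388 normalized counts, and the lowest wild-type values of Dbp, Per1, Per2, Per3, Cry2, Nr1d1 and Nr1d2. It was also lowest among wild-type samples in Ciart. Tef had 1176 normalized counts in it, against 4090.2 to 10036 in the other wild-type samples, and Usp2 had 585, against 2284 to 3457. Its Npas2, at 1849, was the highest of the wild-type samples.

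Arntl and the other members were also compared among the libraries of a tumour group, since Arntl peaks in most tissues at the time of day when Dbp and the Per genes are low. Over the 7 libraries of each tumour group, none of 18 correlations had an adjusted p below 0.05 by an exact permutation test over 5040 pairings (lowest adjusted p = 0.715, and 0 with an unadjusted p below 0.05). The largest inverse values in Apc/Tgif tumours were with Cry1 (Pearson r = -0.59, Spearman rho = -0.57, exact p = 0.163 and 0.200) and Per1 (r = -0.56, rho = -0.64, exact p = 0.194 and 0.139). Without the 2 libraries farthest from the median of Arntl they were -0.37 and -0.48. In Apc tumours r was -0.45 with Dbp and -0.44 with Nr1d2 (exact p = 0.324 and 0.313), and without the 2 libraries farthest from the median of Arntl it was -0.29 with Dbp and -0.86 with Nr1d2. With the mean of each sex removed within a group, r of Arntl with Cry2 in Apc/Tgif tumours was 0.966, against -0.113 without that step. It was the 1 of the 18 with an adjusted p below 0.05 (0.0357 by permutation). Pairings were still exchanged between the sexes in that step, so its p is not exact and no conclusion is drawn from it. Wild-type colon, with 5 samples, was not tested.

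**Figure D5:**
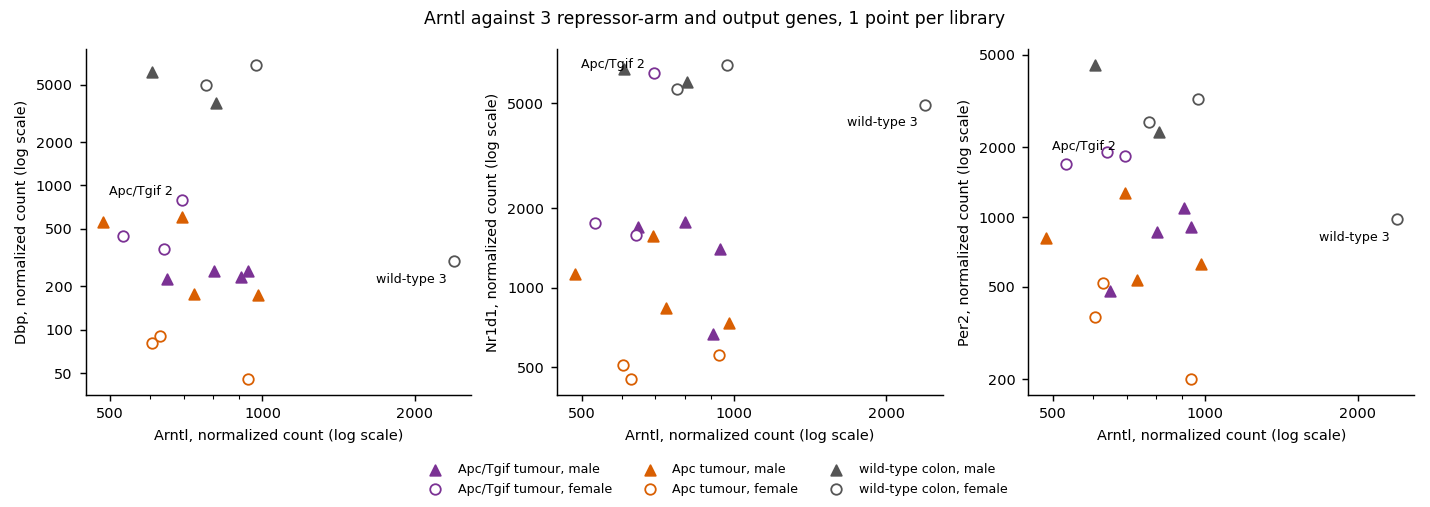
Arntl against Dbp, Nr1d1 and Per2 in normalized counts on log axes, with 1 point per library, colours for Apc/Tgif tumours, Apc tumours and wild-type colon, triangles for males and open circles for females. Wild-type replicate 3 stands alone at an Arntl of 2388, with Dbp at 298 and Per2 at 978 but Nr1d1 at 4935, close to the other wild-type samples, and Apc/Tgif replicate 2 is the tumour with Nr1d1 in the wild-type range.

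For Arntl and Nr1d1, the genes with the most similar residuals were listed from 12270 genes of at least 100 normalized counts on average, after group and sex had been removed, over 19 libraries that share groups and scaling. Predicted genes and clone names were left out, and the values are descriptions. For Nr1d1 they were Txnip (r = 0.938), Zfp395 (0.935), Ctdsp2 (0.925), Tnip1 (0.923) and Zfp362 (0.919), and the most inverse were B3galt2 (-0.926), Rprd1a (-0.922), Myef2 (-0.920), Cdk7 (-0.915) and Mat2a (-0.914). Without the 2 libraries that stood apart, r with Txnip was 0.855 and with B3galt2 -0.910. Per1 was the closest member to Nr1d1 (r = 0.826, place 146), with r = 0.689 when a mean of each group and sex was removed. Without the 2 libraries that stood apart, Dbp was the closest member, with r = 0.739, against 0.730 for Per1. For Arntl the most similar were Klhl5 (0.853), Dzip1 (0.842), Sgpl1 (0.831), Itgav (0.831) and Pik3cb (0.814), and the most inverse were Dhps (-0.821), Kctd5 (-0.819), Shmt1 (-0.818), Rsph3a (-0.817) and Rrp9 (-0.811). Dbp was the most inverse member (r = -0.724, place 12235), and Ciart lay lower still (-0.795, place 12261). Without the 2 libraries that stood apart, r of Arntl was 0.683 with Klhl5 and -0.480 with Dbp.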

How the data were processed

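Poly-A RNA of 19 colon or colon tumour samples was sequenced from 1 end to 75 bases, per the labels' protocols. The deposited table holds a signal per gene and library that is not whole and has the same median scale in every library, and from these values it was read as counts divided by a factor per library, called normalized counts here. Salmon, DESeq2, GRCm38 and mm10 are named in the submitters' processing notes, without versions; the sources used here do not give the annotation or the use of strand. Groups were taken from the genotype labels. The values are not whole counts, so no count model was used.

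Genes with at least 10 normalized counts in at least 5 libraries (18445) were tested on log2(normalized count + 1) with limma 3.58.1 in R 4.3.3, with an intensity trend and robust moderation, 1 fit of all libraries and terms for group and sex. Tests were two-sided, and p-values were adjusted by Benjamini-Hochberg over all genes tested, at a threshold of 0.05. Log2 differences understate the change of low genes. Sex differences came from a model in which each group and sex had 1 mean, sex-split differences from each sex alone, and spread from absolute deviations. Correlations used permutation tests over all pairings of libraries, with ranks from scipy 1.17.1, and these tests are exact only without the removal of sex. The steps were tested on simulated data. Sums of normalized counts per library of 34417808 to 44732717 set the precision, and counting intervals are not given since the raw depth is not in the table.

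Named genes were all members, the targeted genes, the clock lists, and for Arntl and Nr1d1 the 5 genes with the highest and the 5 with the lowest correlation of residuals. A few genes of the lists are not reported here. Genes of the glucocorticoid list were named after their values were seen. The members and lists were chosen with earlier results of these data known. Positions and overlaps are from GENCODE M21 on GRCm38, and promoters from RefSeq on GRCm38.p6. Alternatives were another scaling, filter, pseudocount, moderation, sample set and weighting, and single-library omissions. That model for whole-group differences, the omissions for sex differences, spread and correlations, spread around means per group and sex, and the omission of both libraries that stood apart were added after seeing the data.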

Additional observations from a re-analysis of the deposited data

Results flagged for a closer look

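Among 30 sets of values (10 clock genes in 3 groups), 5 held 1 library far from the rest of its group by Dixon's criterion on normalized counts. Its nominal rate of about 1 in 20 sets holds for independent sets of normally distributed values. These were counts before log2, of genes measured in the same libraries, so the 5 sets cannot be set against that rate. The criterion was not applied on the log2 scale. In Apc/Tgif tumours the library was replicate 2 each time, with 6889.3 normalized counts of Per1, 6496.92 of Nr1d1, 7837.97 of Nr1d2 and 789.62 of Dbp, the highest value of its group in each gene. In wild-type colon it was replicate 3, with 2388.43 normalized counts of Arntl.

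Of 30 differences between the sexes in the effect of a genotype, 9 passed the test of the difference. Of all genes tested, 23.6% passed for Apc/Tgif relative to Apc tumours. The shares relative to wild-type colon were 3.4% for Apc/Tgif and 0.0108% for Apc tumours. For Apc/Tgif relative to Apc tumours the male effect minus the female effect was -3.81 for Per1, -3.25 for Dbp, -3.18 for Per3, -2.42 for Cry2, -2.36 for Per2, -2.03 for Nr1d1 and -1.36 for Cry1 (log2). For Apc/Tgif tumours relative to wild-type colon it was -2.73 for Per1 and -1.62 for Cry1.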

How the results depend on the processing

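Leaving out each library in turn gave 2 to 5 called members in Apc/Tgif tumours relative to wild-type colon (46.1% to 52% of all genes called). It gave 3 to 6 in Apc tumours relative to wild-type colon (44.1% to 52.9%) and 0 to 3 between the tumours (13.7% to 18.7%). The sex difference between the tumour genotypes was called for 6 to 7 members (14.8% to 26.6% of all genes). That of Apc/Tgif tumours relative to wild-type colon was called for 0 to 3 (0.0271% to 9.76%). For Apc/Tgif tumours relative to wild-type colon, the members called were 0 in females alone (43.4% of all genes called), 8 in males alone (42.5%), 7 with quality weights (59.9%), 5 with 1 mean per group and sex (54.9%), and 6 without both libraries that stood apart (50.3%). The sex difference in that comparison was called for 4 members with quality weights (19.8% of all genes) and 0 without both libraries (0.0651%). Between Apc/Tgif and Apc tumours the members called were 1 without a filter (11.7% of all genes), 1 with quantile normalization (16.1%), 5 in females alone (24.1%), 0 with only these 2 groups in the fit (13.2%) and 5 with 1 mean per group and sex (22.9%). In females alone 2230 genes were higher in Apc/Tgif than in Apc tumours, and in males alone 3039 genes were lower in Apc tumours than in wild-type colon. Between Apc/Tgif and Apc tumours Cry1 had 0.11 in females alone and Per1 -1.02 in males alone, both opposite in sign to the value with both sexes. With sex removed, 1 of the 18 Arntl correlations had an adjusted p below 0.05 by permutation, with Cry2 in Apc/Tgif tumours (0.0357). Its r was 0.966, against -0.113 before, and the permutation test is not exact in that setting. The cause of these changes was not tested. Of all values of single genes under the alternatives, 2656 kept their side of the threshold. Those of them that passed it also kept their direction, while values that did not pass could change sign. A further 78 no longer passed the threshold, 47 newly passed it, and 3 changed sign with a pass before or after. With libraries scaled to equal totals, the median log2 difference of all genes from wild-type colon was 0.15 in Apc/Tgif and 0.19 in Apc tumours. Without that scaling it was 0.0016 and -0.01. No paired analysis was possible because the labels give no replicate numbers that are shared between groups. The 5 wild-type samples, of which 2 are male, limit the sex-split values.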
